A study of Mus musculus with 15 samples.

Results

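The 3 Trim24COE mammary carcinomas were compared with 3 spontaneous mammary tumors of mice not made to overexpress TRIM24, called non-TRIM24 tumors in the sample labels, across all genes measured by RNA-seq. Members were chosen by the labels alone: a library of genotype TRIM24 overexpression and subtype Carcinoma, sequenced in batch 1 (tumors 89, 273_5 and 3956), or a tumor titled Non-TRIM24, sequenced in batch 2 (tumors 219, FVB001 and FVB002). These are 6 of the 15 libraries of the series. Because every carcinoma was first sequenced in one batch and every non-TRIM24 tumor in the other, 3 further libraries entered the fit to estimate the shift of each gene between batches: the repeat of carcinoma 3956 in batch 2, and both libraries of control gland 133, one from each batch. Each value below is in TPM, a share of a library's transcripts that allows levels to be compared between genes. Within a group the tumors are always given in the order above.

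All mice are labelled FVB, although the series text names an FVB/129 background for the transgenic mice and glands, and the study describes the spontaneous tumors as from FVB or FVB/129 animals. In Trim24COE mice a single-copy piggyBac transgene, in which a floxed stop cassette precedes FLAG-tagged mouse Trim24, is switched on by Cre under the MMTV promoter, which is active in mammary epithelium. Gland 133 came from a mouse with MMTV-Cre and no Trim24 transgene. For the non-TRIM24 tumors the label gives the genotype only as unknown, so Cre and strain cannot be told apart from the transgene, and no ages are given in the labels. All 6 tumors are labelled carcinomas, but of the study's 2 pathologists 1 read tumors 89 and 3956 as carcinosarcomas, and the class of some Trim24COE tumors was set in part from their RNA-seq.

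TRIM24 is a chromatin reader of the TIF1 family. It binds histone tails through a PHD finger and bromodomain, ubiquitinates proteins through its RING domain, and acts as a coregulator of nuclear receptors, among them the retinoic acid receptors, which switch genes on when they bind a vitamin A derivative made inside the cell. The mammary gland in which these tumors arise is a ductal epithelium of luminal and basal cells set in a fat pad, and markers of the epithelium, of milk production, of fat and of immune cells therefore report much of what a piece of tumor holds. In bulk RNA, fewer cells of a type and less RNA per cell cannot be told apart.

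**Figure D1:**
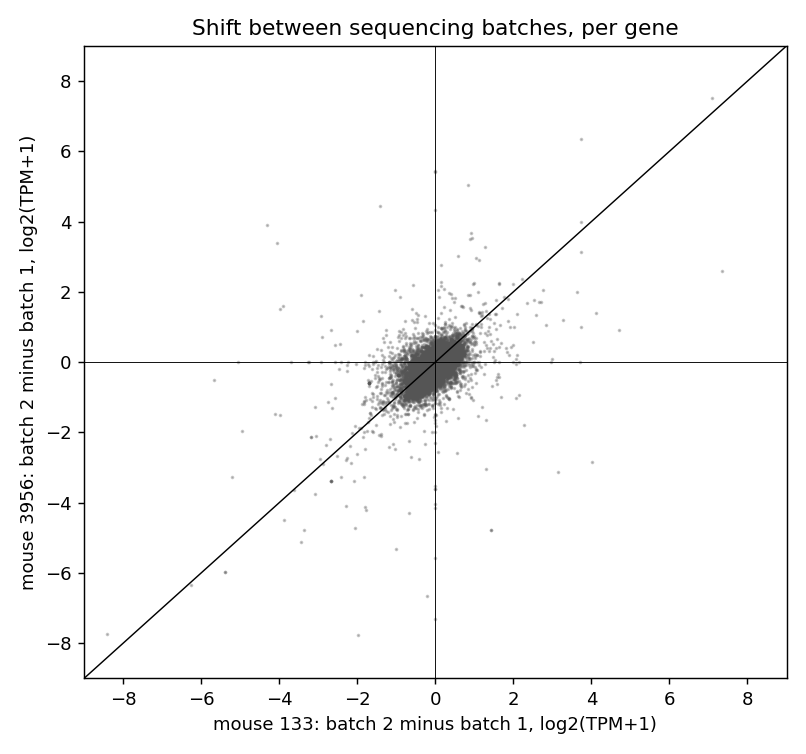
Difference between the batch 2 and the batch 1 library of the same mouse, on the log2(TPM + 1) scale, for each of the 14466 genes tested, with gland 133 on the x axis and carcinoma 3956 on the y axis; the diagonal marks equal shifts. Most genes lie near the origin, and the shifts of the pair of mice were within 1 of each other for 97.1% of genes.

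The shift between batches was small for most genes and large for a few. Its median over genes was 0.05 on the log2 scale in gland 133 and -0.06 in carcinoma 3956, and the mean of both shifts was beyond 1 in either direction for 2.30% of genes. The genes with the most extreme shifts were Hist1h2ah, Hist1h2ap, Rnu5g, Rny1 and Rpl30-ps9, lower in batch 2, and H3f3a-ps2, Mir6340, Rps12l1, Snora64 and Snurf, higher in batch 2. Most are histone, small RNA or pseudogene entries. Hist1h2ap had shifts of -6.27 in gland 133 and -6.34 in carcinoma 3956. Rny1, by contrast, had shifts of 0.00 and -7.32, and for such a gene no single correction serves both mice. Of the protein-coding mitochondrial genes, mt-Co2 was lower in batch 2 by a shift of -2.89 and of -2.90, and the 13 mitochondrially encoded genes tested had a median shift of -0.80.

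Tumors 219 and FVB001 resembled each other less than 219 resembled carcinoma 273_5. Over the genes tested, after the batch shift had been taken off, Spearman's rho was 0.915 between 219 and FVB002 and 0.912 between FVB001 and FVB002, but 0.771 between 219 and FVB001. Among the carcinomas it lay between 0.834 and 0.888, and between 219 and carcinoma 273_5 it was 0.898. FVB001 stood apart, with rho from 0.731 to 0.766 against the carcinomas. Of the 4562 genes that differed more than 2-fold between 219 and FVB001, FVB002 lay between them for 4193, or 91.9%. The labels give FVB002 as a tumor of its own, and whether its RNA is independent of theirs was not tested. All these correlations are across genes of single libraries, which share transcripts and are not independent.

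Fat and epithelial markers placed FVB001 and 219 at opposite ends. The summed level of the 20 adipocyte markers was 2376, 929 and 228 TPM in the carcinomas and 262, 70812 and 34765 TPM in the non-TRIM24 tumors. Tumor 219 was thus as low in fat markers as carcinoma 3956, FVB001 was the highest of the 6, and FVB002 was again in between. Adipoq, which encodes the fat cell hormone adiponectin, was at 68.2, 23.8 and 5.45 TPM against 3.31, 4315 and 1525 TPM. Krt8, a keratin of luminal epithelium, was at 306, 882 and 2469 TPM in the carcinomas and 1836, 141 and 1003 TPM in the non-TRIM24 tumors, where FVB001 was lowest. Epcam, an epithelial adhesion molecule, was likewise lowest in FVB001, with 1275, 281 and 401 TPM against 516, 36.4 and 321 TPM. Krt5, a keratin of basal cells, reached 961 TPM in carcinoma 89 and stood below 1 TPM in the other two carcinomas. In the control gland Krt8 was at 158 and 208 TPM and Epcam at 153 and 155 TPM in its libraries of batch 1 and batch 2. FVB001 thus lay below normal gland for both markers. Other keratins lay above the gland in FVB001: Krt6a at 32.2 TPM against 0.46 and 0.06 TPM, Krt17 at 22.2 TPM against 8.49 and 8.01 TPM, and Krt19 at 173 TPM against 117 and 135 TPM. Markers of epithelium went both ways, and the label of carcinoma for FVB001 cannot be judged from them. The part that fat, epithelium and batch play in the results below was not tested. Values without FVB001, and against 219 alone, are given beside the results that rest on them.

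**Figure D2:**
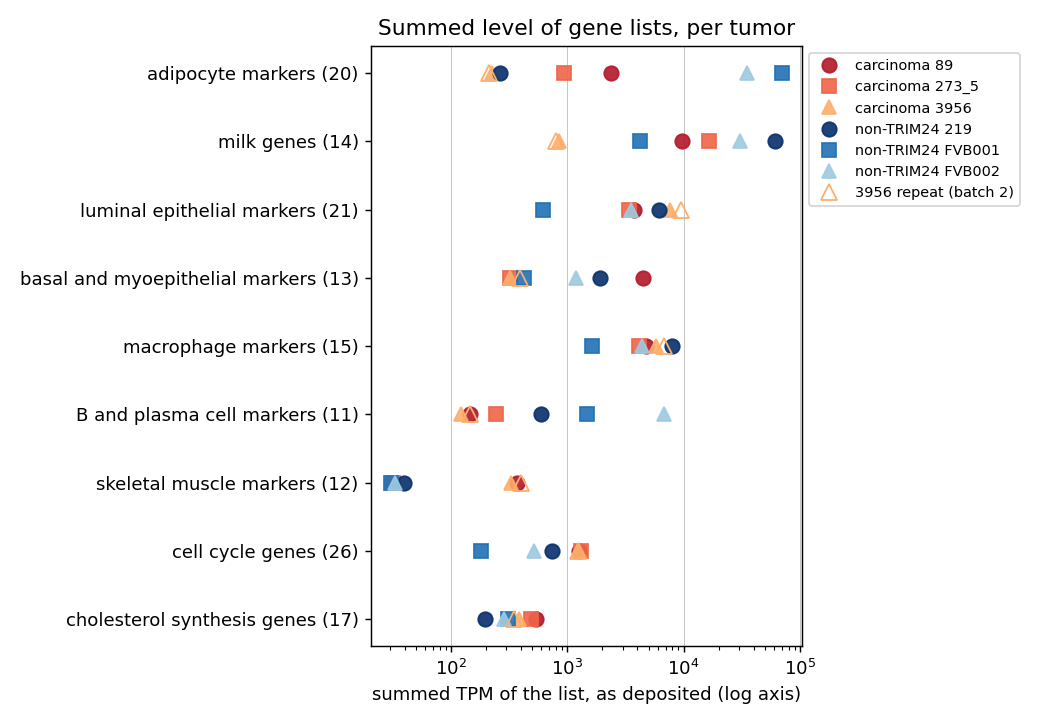
Summed TPM of 9 gene lists in each tumor, as deposited and without batch correction, on a log axis; each symbol is 1 library, red and orange for carcinomas, blue for non-TRIM24 tumors, and the open triangle the batch 2 repeat of carcinoma 3956. Adipocyte markers span from 262 to 70812 TPM within the non-TRIM24 tumors, while the carcinomas lie together and above all 3 non-TRIM24 tumors for the cell cycle genes.

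With 14466 genes tested, none passed an adjusted p of 0.05 in limma (0%), and the smallest adjusted p was 0.126. At an unadjusted p under 0.05 there were 2480 genes (17.1%), of which 2070 were higher in the carcinomas (14.3% of those tested) and 410 were lower (2.83%). That split depended on how the libraries were scaled. The median log2 fold change over all genes was 0.32, and it was 0.03 after median-of-ratios scaling, where 879 genes were higher (6.08%) and 874 lower (6.04%) at the same unadjusted limit. Each fold change below is the carcinoma level over the non-TRIM24 level on the log2(TPM + 1) scale, which understates the change of genes near 1 TPM. It is to be read against the median over all genes of its own fit. That median was 0.27 without FVB001, 0.32 without 219 and 0.39 against 219 alone. Without FVB001 no gene passed the adjusted threshold, and 7.42% of genes were higher and 2.29% lower at the unadjusted limit. Without 219, 80 genes passed (0.553%), with 12.2% higher and 7.33% lower at the unadjusted limit, and against 219 alone none passed, with 3.19% higher and 1.06% lower. Without FVB002 the count by limma was 0, with 1549 genes at an unadjusted p under 0.05. The fit against 219 alone holds a single non-TRIM24 tumor, assumed to vary like the other groups, and its values describe that tumor. With the batch ignored, 985 genes passed (6.81%), with 25.8% higher and 5.1% lower at the unadjusted limit.

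Trim24 itself came first as the check of the labels. The gene (ENSMUSG00000029833, GRCm38 chromosome 6, 37870811 to 37966296, plus strand) was at 24.1, 13.9 and 16.4 TPM in the carcinomas, a mean of 18.1 ± 5.29 TPM (SD, n = 3), and at 5.34, 9.34 and 10.04 TPM in the non-TRIM24 tumors, a mean of 8.24 ± 2.54 TPM (SD, n = 3). In batch 2, where carcinoma 3956 can be set beside the non-TRIM24 tumors directly, its repeat was at 11.5 TPM, above all of them. The control gland, without the transgene, was at 14.5 TPM in batch 1 and 11.1 TPM in batch 2, so carcinomas 273_5 and 3956 stood close to the gland, 89 above it and the non-TRIM24 tumors below it. The fitted log2 fold change was 0.62 ± 0.37 (SE), with a 95% confidence interval from -0.22 to 1.46 and a limma adjusted p of 0.386. After the batch shift, the groups did not overlap, and the exact two-sided permutation test over the 6 tumors gave p = 0.1, which is the smallest this design allows. Against 219 alone the log2 fold change was 1.12, and without 219 it was 0.37. Trim28, the TIF1 corepressor recruited by zinc finger proteins, was at 167, 174 and 146 TPM against 246, 152 and 199 TPM, with overlapping groups. Trim33, which acts in TGF-beta signalling, was at 22.3, 24.1 and 20.3 TPM against 14.4, 5.17 and 13.5 TPM and overlapped once the batch shift was taken off.

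**Figure D3:**
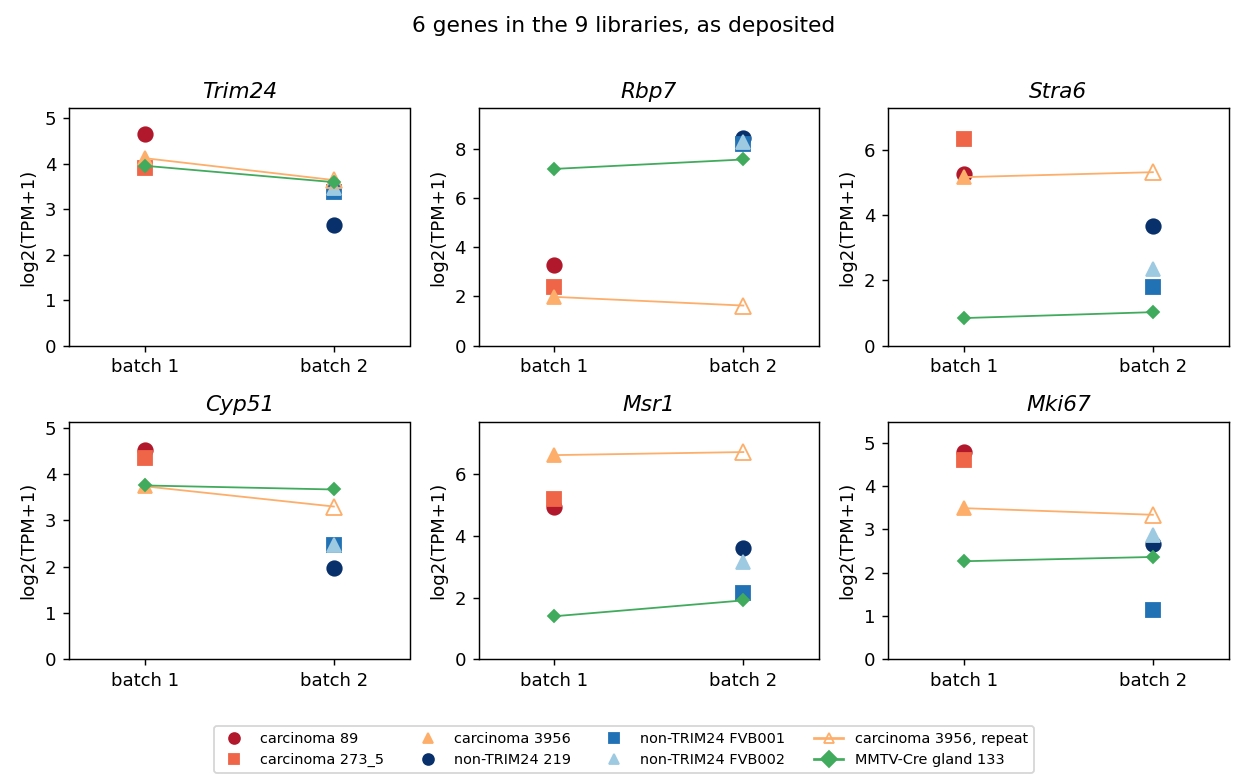
Level of Trim24, Rbp7, Stra6, Cyp51, Msr1 and Mki67 in the 9 libraries of the fit, as log2(TPM + 1) from 0, split by sequencing batch; lines join the libraries of one mouse sequenced in both batches (triangles, carcinoma 3956; green diamonds, control gland 133). The lines are nearly flat for most of these genes, and for Rbp7 the non-TRIM24 tumors sit slightly above the gland while all carcinoma libraries lie far lower.

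Genes of vitamin A handling held the largest single difference among the named genes. Rbp7, which encodes an intracellular retinol-binding protein (ENSMUSG00000028996, GRCm38 chromosome 4, 149449687 to 149454978, minus strand), was at 8.78, 4.27 and 2.95 TPM in the carcinomas and at 347, 297 and 313 TPM in the non-TRIM24 tumors. The non-TRIM24 tumors were close to each other, and the control gland was at 146 and 190.2 TPM in its 2 libraries. Whether fat content plays a part in these levels was not tested. The repeat of carcinoma 3956 was at 2.09 TPM, the lowest of batch 2. Its log2 fold change was -5.83 ± 0.61 (SE), with a 95% confidence interval from -7.24 to -4.42 and a limma adjusted p of 0.126, not past the threshold. Rbp7 passed in 9 of 17 alternative fits, with adjusted p from 0.000821 to 0.171 in those that kept all tumors. The 17 include batch 2 alone, where 3956 is the only carcinoma, with a log2 fold change of -6.69. Among the 9 are the fit with no batch term and the fit that left out the error of the shift. Rbp7 was named for its small p in the same data, so these fits add no independent support. Leaving out 1 tumor at a time, the log2 fold change stayed between -6.22 and -5.09, and against 219 alone it was -5.96.

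On the import side, Stra6, the membrane receptor through which cells take up retinol from its plasma carrier, was at 36.96, 79.3 and 34.6 TPM against 11.6, 2.46 and 4.07 TPM, with a log2 fold change of 3.13 ± 0.55 (SE) and a limma adjusted p of 0.221. Rdh10, which oxidizes retinol to retinaldehyde, was at 20.7, 38.9 and 133 TPM against 8.65, 2.99 and 5.99 TPM, a log2 fold change of 2.65 ± 0.68 (SE). Both genes were higher in every carcinoma than in every non-TRIM24 tumor, and the control gland was at 0.79 TPM for Stra6 and 5.02 TPM for Rdh10 in batch 1. Dhrs3, which catalyzes the reverse step, was at 61.9, 40.6 and 47.1 TPM against 72.9, 213 and 125 TPM, with a log2 fold change of -0.99 ± 0.41 (SE). Aldh1a1, which makes retinoic acid from retinaldehyde, was at 3.77, 0.96 and 0.81 TPM against 0.49, 61.97 and 30.6 TPM and ran with the fat markers, low in 219 and high in FVB001. Rara, the retinoic acid receptor alpha, was at 27.1, 14.4 and 29.1 TPM against 19.6, 11.7 and 16.7 TPM and overlapped. Of the 20 retinoid genes tested, 2 were higher and 2 lower at an unadjusted p under 0.05, against 14.3% and 2.83% of all genes, so the list as a whole stood near the background in the higher direction, and its median log2 fold change was 0.11.

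Proliferation genes were the list with the most members that separated the groups. All 26 cell cycle genes were tested and all had a positive log2 fold change, as did 67.4% of all genes, with a median of 1.52. At an unadjusted p under 0.05, 18 of them were higher in the carcinomas, beside 14.3% of all genes, and 21 did not overlap between the groups after the batch shift, beside 28.5% of all genes. None passed the adjusted threshold. Mcm6, a subunit of the replicative helicase, was at 49.1, 47.4 and 44.1 TPM against 18.3, 4.07 and 14.9 TPM, a log2 fold change of 2.29 ± 0.52 (SE). For Mki67, the proliferation marker Ki-67, the levels were 26.7, 23.1 and 10.2 TPM against 5.31, 1.21 and 6.32 TPM, a log2 fold change of 1.99 ± 0.59 (SE). Ccnd1, cyclin D1, was at 199, 77.4 and 510.3 TPM against 56.9, 11.2 and 49.3 TPM, a log2 fold change of 2.61 ± 0.79 (SE). FVB001 was lowest for each of these genes. Top2a, which untangles DNA, was at 94.3, 88.5 and 35.4 TPM against 42.6, 5.64 and 25.7 TPM, and here 219 reached the carcinoma range. The summed level of the list was 1273, 1324 and 1260.0 TPM in the carcinomas and 737, 182 and 523 TPM in the non-TRIM24 tumors, and 1229 TPM in the batch 2 repeat of 3956. Without FVB001 the median was 0.92 and 9 members stayed under the unadjusted limit, beside 7.42% of all genes. Against 219 alone the median was 0.61, with 1 member under it, beside 3.19% of all genes. Under median-of-ratios scaling the median was 1.24, with 8 members under the limit, beside 6.08% of all genes. Among brakes on the cycle, of 20 CDK inhibitors and p53 targets, 1, the p53 antagonist Mdm2, was higher at the unadjusted limit and 0 lower.

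Genes of sterol synthesis and uptake came next. Of 17 tested, 6 were higher in the carcinomas at an unadjusted p under 0.05, beside 14.3% of all genes, and 0 lower. After the batch shift 9 did not overlap, beside 28.5% of all genes, and the median log2 fold change was 0.73. Cyp51, an enzyme that demethylates lanosterol, was at 21.97, 19.2 and 12.3 TPM in the carcinomas and 2.95, 4.54 and 4.57 TPM in the non-TRIM24 tumors, with a log2 fold change of 1.58 ± 0.42 (SE) and a limma adjusted p of 0.221. Msmo1, which acts at the next steps, was at 69.5, 29.8 and 46.2 TPM against 10.3, 15.8 and 15.3 TPM, a log2 fold change of 1.53 ± 0.42 (SE). Both were higher in every carcinoma than in every non-TRIM24 tumor, and the control gland also lay above every non-TRIM24 tumor, at 12.5 TPM of Cyp51 and 26.2 TPM of Msmo1 in batch 1. Srebf2, a transcription factor that switches on genes of this pathway, was at 32.4, 35.5 and 34.8 TPM against 18.01, 9.59 and 19.99 TPM. Soat1, which esterifies cholesterol for storage and was not on the list, was at 31.03, 34.97 and 79.4 TPM against 6.1, 3.21 and 5.35 TPM, a log2 fold change of 2.50 ± 0.45 (SE). Without FVB001, 6 members were under the unadjusted limit, beside 7.42% of all genes, with a median of 0.84, and against 219 alone the median was 0.96.

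**Figure D4:**
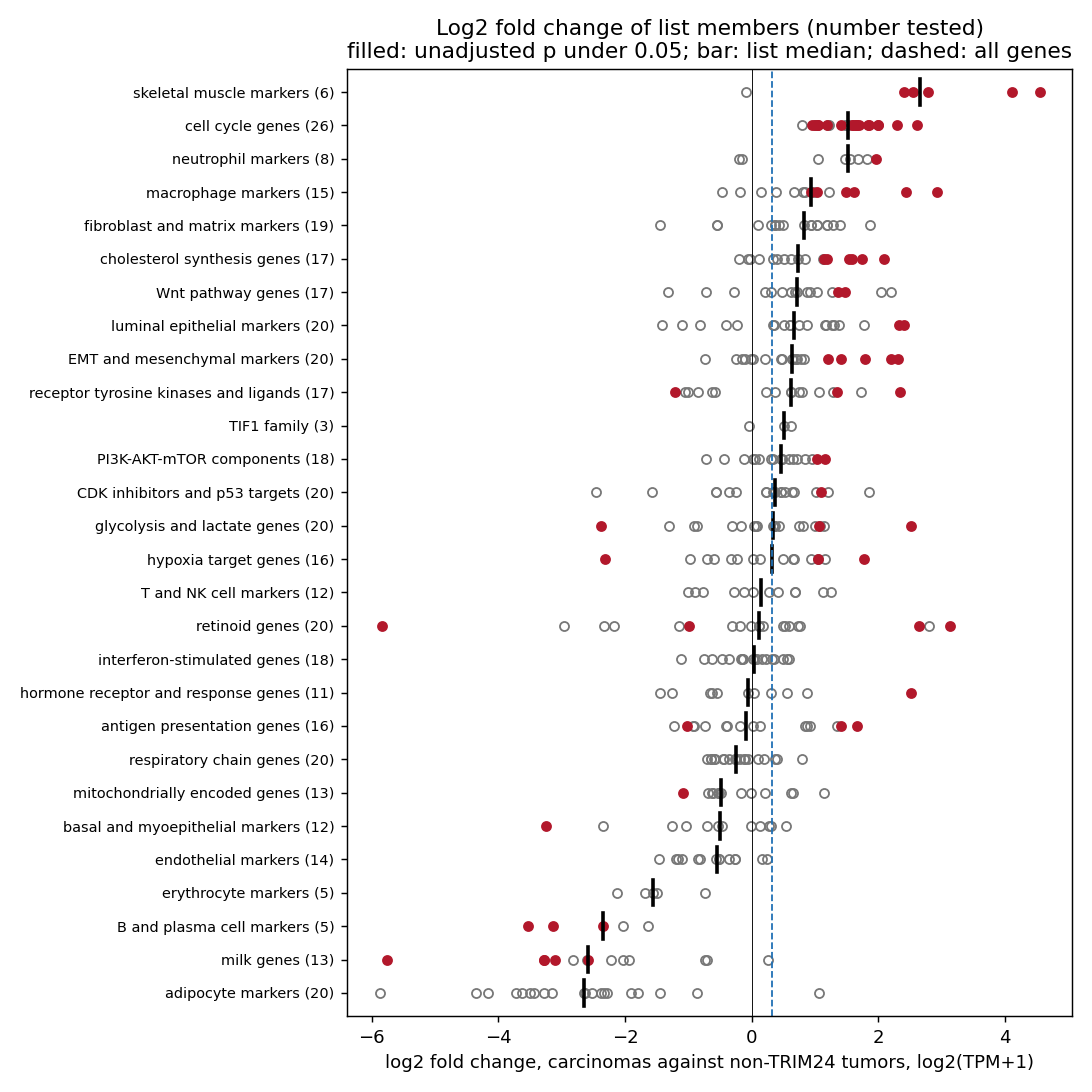
Log2 fold change of each tested member of 28 gene lists, carcinomas against non-TRIM24 tumors on the log2(TPM + 1) scale; each circle is 1 gene, filled where its unadjusted p was under 0.05, black bars are list medians and the dashed line the median of all 14466 genes. Cell cycle genes lie wholly to the right, milk genes and adipocyte markers almost wholly to the left, and the adipocyte markers hold no filled circle.

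Milk protein genes stood lower in the carcinomas and spread widely inside both groups. Of 13 tested, 5 were lower at an unadjusted p under 0.05, beside 2.83% of all genes, and 0 higher, with a median log2 fold change of -2.58. Csn2, beta-casein, was at 1415, 178 and 234 TPM against 7301, 417 and 4491 TPM, and Lalba, the lactose synthase cofactor alpha-lactalbumin, at 73.4, 212 and 14.3 TPM against 1166, 109.7 and 732 TPM. For both genes 219 was highest and FVB001 fell within the carcinoma range. Glycam1, a secreted mucin of milk, was the single member without overlap (beside 4.53% of all genes), at 10.5, 0.57 and 27.5 TPM against 1631, 138 and 960.2 TPM, a log2 fold change of -5.75 ± 1.20 (SE). Without FVB001 the median was -3.48 with 8 members lower at the unadjusted limit, beside 2.29% of all genes. Without 219 it was -1.74 with 1 member, beside 7.33% of all genes. Against 219 alone it was -4.23 with 7 members, beside 1.06% of all genes.

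Adipocyte markers had a median log2 fold change of -2.64, yet none of the 20 reached an unadjusted p under 0.05. This rested on the fat-poor tumor 219: without it 18 were lower at that limit, beside 7.33% of all genes, and 8 passed the adjusted threshold, and against 219 alone the median turned to 1.74. Fabp4, a fatty acid carrier of fat cells, was at 799, 487 and 68.5 TPM against 119, 25416 and 13269.6 TPM. Igf1, a growth factor also made by fat and stroma, was lower in every carcinoma, at 19.3, 3.17 and 5.67 TPM against 67.95, 165 and 104 TPM, a log2 fold change of -3.57 ± 0.63 (SE), and -2.95 against 219 alone.

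Immune cell markers went in different directions by cell type. Among 15 macrophage markers, 6 were higher at an unadjusted p under 0.05, beside 14.3% of all genes, and 0 lower, with a median log2 fold change of 0.94. Against 219 alone the macrophage median was 0.45, near the 0.39 of all genes in that fit. Msr1, a scavenger receptor, was at 29.7, 35.6 and 97.7 TPM against 11.3, 3.41 and 7.84 TPM, and its log2 fold change was 2.92 ± 0.60 (SE). Itgam, the integrin CD11b of myeloid cells, was at 21.02, 11.1 and 19.9 TPM against 4.01, 4.35 and 4.07 TPM, the non-TRIM24 tumors lying almost together. Adgre1, which encodes F4/80, was at 20.1, 21.4 and 22.8 TPM against 12.2, 8.36 and 8.85 TPM, but Cd68, a lysosomal protein, overlapped at 56.5, 56.6 and 104 TPM against 64.2, 159 and 97.7 TPM. The summed level of the list, which its most abundant genes set, also overlapped, at 4756, 4161 and 5741 TPM against 7918, 1621 and 4422 TPM, highest in 219. Of 8 neutrophil markers 1 was higher at that limit, Csf3r, the G-CSF receptor, at 67.2, 10.5 and 13.3 TPM against 9.64, 2.18 and 5.64 TPM.

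For B and plasma cells, 5 of the 11 markers listed were tested. Mzb1, at 0.71, 1.88 and 0.47 TPM against 2.07, 3.67 and 25.1 TPM, passed the filter on low values through the non-TRIM24 tumors. No count of lower members is given for this reason. With Mzb1 among the 5, the median log2 fold change was -2.34, and against 219 alone it was -0.82. Ighm, the IgM heavy chain, was at 32.05, 22.2 and 11.1 TPM against 69.2, 354 and 1042 TPM. Iglc2, a lambda light chain constant region that shares reads with its near copies, was at 0.68, 1.79 and 0.52 TPM against 17.2, 28.1 and 54.6 TPM, with a log2 fold change of -4.05 ± 0.56 (SE). FVB002 held the most of these transcripts and 219 the least of the non-TRIM24 tumors, and the control gland, at 120.3 TPM of Ighm, also lay above the carcinomas. T and NK cell markers showed 0 higher and 0 lower of 12. Interferon-stimulated genes likewise showed 0 and 0 of 18, both lists beside 14.3% of all genes higher and 2.83% lower at an unadjusted p under 0.05.

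Epithelial and mesenchymal programs differed in how many members passed the unadjusted limit, at which 14.3% of all genes were higher and 2.83% lower. Of 20 luminal markers, 2 were higher, the keratin Krt7 at 294, 285 and 874 TPM against 328, 26.1 and 159.8 TPM and the tight junction protein Cldn4 at 131, 152 and 421 TPM against 121, 7.62 and 69.04 TPM. The luminal median turned from 0.68 to -0.44 against 219 alone. Of 20 genes of epithelial-mesenchymal transition, 5 were higher, Axl, Cd44, Fn1, Mmp14 and Tgfbi, and without FVB001 2, beside 7.42% of all genes. Fn1, the matrix protein fibronectin, was at 248, 224 and 1885 TPM against 187, 76.9 and 122 TPM, a log2 fold change of 2.20 ± 0.88 (SE). Vim, the intermediate filament vimentin, overlapped at 498, 277 and 996 TPM against 424, 1338 and 661 TPM. Cdh1, E-cadherin, was at 124, 84.8 and 103 TPM against 66.4, 4.84 and 55.9 TPM, higher in each carcinoma, with a limma adjusted p of 0.320. Oxtr, the oxytocin receptor of myoepithelial cells, was the one basal marker of 12 past the limit, at 0.92, 1.73 and 0.15 TPM against 7.07, 32.1 and 18.4 TPM. Areg, a ligand of the EGF receptor that estrogen induces in the gland, was the one of 11 hormone response genes past it, at 104, 30.1 and 116 TPM against 40.2, 2.47 and 19.5 TPM.

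Signalling genes showed single members rather than whole lists. Met, the receptor of hepatocyte growth factor, was at 28.5, 1292 and 30.9 TPM in the carcinomas and 232, 22.6 and 239.5 TPM in the non-TRIM24 tumors: carcinoma 273_5 was highest by far, while 89 and 3956 were near FVB001 and below 219 and FVB002. Its log2 fold change was -0.57 ± 1.56 (SE). Tgfa, another ligand of the EGF receptor, was at 39.03, 9.94 and 73.9 TPM against 6.94, 1.26 and 7.54 TPM. Akt1, a kinase downstream of growth factor receptors, was at 136, 123 and 267 TPM against 117, 67 and 97.2 TPM, a log2 fold change of 1.04 ± 0.37 (SE). Among 18 PI3K-AKT-mTOR components 2 were higher at an unadjusted p under 0.05 and 0 lower, a share near the 14.3% of all genes. For the receptor tyrosine kinases and ligands the counts were 2 and 1 of 17, and for the Wnt pathway 2 and 0 of 17, beside 14.3% and 2.83% of all genes.

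In oxygen sensing, Hif1a, the oxygen-regulated transcription factor, was at 62.2, 65.7 and 87.6 TPM against 10.6, 8.36 and 15.6 TPM. Both repeated mice were lower in batch 2, with shifts of -0.63 and -0.91, and the log2 fold change with these taken into the fit was 1.78 ± 0.36 (SE). P4htm, a transmembrane prolyl hydroxylase, was at 0.98, 0.19 and 0.29 TPM against 9.41, 6.34 and 7.27 TPM, below 1 TPM in each carcinoma, with a log2 fold change of -2.31 ± 0.37 (SE). P4htm passed the filter on low values only through the non-TRIM24 tumors, so no count of lower members is given. Of the 16 hypoxia genes tested, 2 were higher at an unadjusted p under 0.05, Hif1a among them, beside 14.3% of all genes. In glycolysis Ldhb, the lactate dehydrogenase B subunit, was lower, at 96.4, 135 and 28.99 TPM against 259, 837 and 616 TPM, and Slc16a3, a lactate exporter, higher, at 112, 22.96 and 93.3 TPM against 26.8, 3.03 and 13.2 TPM. Those and Pgam1 were the 3 of 20 at an unadjusted p under 0.05, beside 14.3% of all genes higher and 2.83% lower.

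Transcripts of skeletal muscle marked carcinomas 89 and 3956. Of 12 muscle markers 6 passed the filter on low values. Ckm and Tnnt3, below 1 TPM in every non-TRIM24 tumor, passed it only through the carcinomas, so no count over the list is given. Ckm, muscle creatine kinase, was at 47.8, 3.92 and 39.3 TPM against 0.23, 0.07 and 0.24 TPM, and gland 133 was at 52.2 TPM. Tnnt3, the fast muscle troponin T, was at 59.9, 5.15 and 35.3 TPM against 0.7, 0.77 and 0.79 TPM. The summed level of the list was 372, 31.96 and 328 TPM in the carcinomas, with 273_5 in the range of the non-TRIM24 tumors at 39.3, 30.5 and 32.9 TPM. These sums include Mb, at 14.3, 5.28 and 5.24 TPM against 24.6, 2.85 and 14.4 TPM. For Ckm and Tnnt3, 273_5 lay above every non-TRIM24 tumor. Without 273_5, 5 of the 14466 genes tested passed the adjusted threshold. For Ckm and Tnnt3 that fit cannot serve as support, since it leaves out the carcinoma where both were lowest. The fibroblast, endothelial, erythrocyte and respiratory chain lists had no member at an unadjusted p under 0.05. Antigen presentation genes had 2 higher and 1 lower of 16, and mitochondrially encoded genes 0 and 1 of 13, beside 14.3% and 2.83% of all genes.

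**Figure D5:**
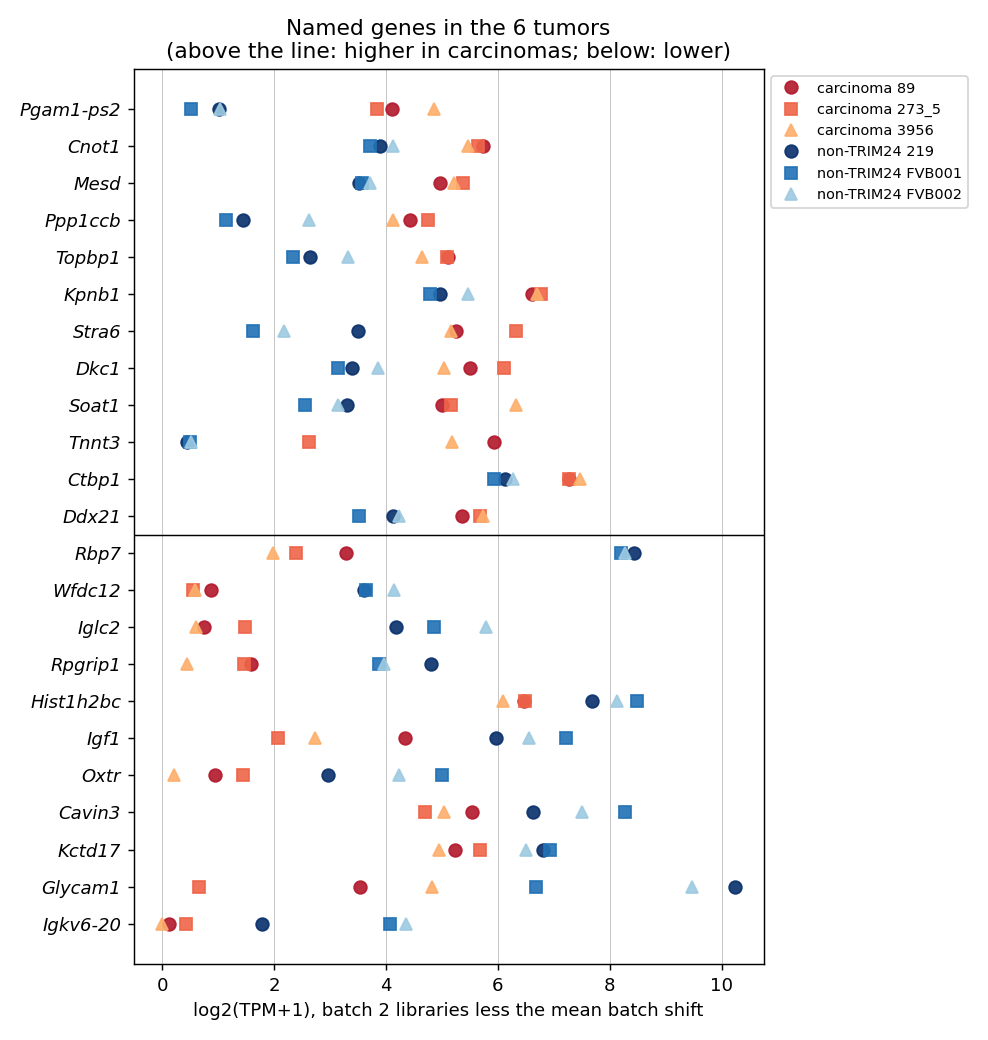
Level of 23 of the 24 named genes in each of the 6 tumors as log2(TPM + 1), with the mean batch shift taken off the batch 2 libraries; each symbol is 1 tumor, red and orange for carcinomas and blue for non-TRIM24 tumors. By the rule that chose them the groups do not overlap for any gene shown; the gap is widest for Rbp7.

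The named genes, 12 in each direction, were those of smallest unadjusted p whose groups did not overlap after the batch shift and whose shift was alike in both mice, with a mean of at least 10 TPM in the higher group. They were chosen by these values, which are given as a description. None passed the adjusted threshold, with limma adjusted p from 0.126 to 0.221 in both directions. Leaving aside genes below 1 TPM throughout a group, each kept its sign when any 1 tumor was left out. The rule of no overlap largely fixed this in advance. The genes left aside passed the filter on low values through the other group alone, which also fixed their direction. In batch 2 the repeat of carcinoma 3956 lay above all non-TRIM24 tumors for all 12 higher genes and below all for all 12 lower ones. This adds no independent support, since the same non-TRIM24 tumors and both libraries of 3956 entered the choice. Among all genes the repeat lay above all non-TRIM24 tumors for 49.2% and below all for 20.9%.

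Among the higher genes, Cnot1, the scaffold of the CCR4-NOT deadenylase, was at 51.99, 49.2 and 42.9 TPM against 13.2, 11.5 and 15.6 TPM, a log2 fold change of 1.69 ± 0.26 (SE). Kpnb1, the nuclear import receptor importin beta, was at 96.3, 109 and 102 TPM against 34.5, 30.2 and 49.3 TPM, and Ddx21, a nucleolar RNA helicase, at 39.8, 50.4 and 52.5 TPM against 13.96, 8.77 and 15.1 TPM. Within each group these levels lay fairly close together, which the choice by small p favors. Dkc1, which modifies ribosomal RNA and belongs to telomerase, was at 44.2, 68.03 and 31.8 TPM against 6.98, 5.69 and 9.96 TPM. Topbp1, which acts in DNA replication and damage signalling, was at 33.3, 33.05 and 23.97 TPM against 6.12, 4.75 and 10.4 TPM, a log2 fold change of 2.16 ± 0.36 (SE). Ctbp1, a transcriptional corepressor, was at 154, 154 and 176 TPM against 64.6, 55.8 and 70.97 TPM, and Mesd, a chaperone of the Wnt coreceptors, at 30.3, 40.6 and 36.03 TPM against 14.8, 15.5 and 17.2 TPM. The remaining higher genes, besides Stra6, Soat1 and Tnnt3, were the pseudogenes Pgam1-ps2, at 16.2, 13.3 and 28.01 TPM against 1.86, 1.04 and 1.9 TPM, and Ppp1ccb, whose batch shift was above 1 in both mice. Their reads cannot be told apart with certainty from those of their parent genes.

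Among the lower genes, Wfdc12, a small secreted protease inhibitor of the WAP family, was below 1 TPM in each carcinoma, at 0.82, 0.47 and 0.49 TPM, and at 12.1, 12.5 and 18.1 TPM in the non-TRIM24 tumors. Its log2 fold change was -3.12 ± 0.35 (SE). Wfdc12 passed the filter on low values only through the non-TRIM24 tumors, so its results in the alternative fits are not given. Rpgrip1, a ciliary protein, was at 2.01, 1.74 and 0.35 TPM against 24.7, 12.4 and 13.3 TPM. Both were also low in carcinoma 3956 in batch 2 and higher in 219 than in any carcinoma. Cavin3, a coat protein of caveolae, was at 45.4, 24.96 and 31.7 TPM against 130.1, 406 and 239 TPM and followed the fat markers within the non-TRIM24 tumors. Kctd17, a ubiquitin ligase adaptor, was at 36.8, 50.2 and 29.7 TPM against 110.2, 120.1 and 88.9 TPM, and the histone gene Hist1h2bc at 87.9, 88.6 and 67.6 TPM against 222, 392 and 305 TPM. The last of the lower genes, Igkv6-20, is an immunoglobulin kappa variable segment, at 0.08, 0.34 and 0 TPM against 2.33, 15.3 and 18.7 TPM, and was lowest in 219 among the non-TRIM24 tumors. Igkv6-20 also passed the filter on low values only through the non-TRIM24 tumors, so its levels are a description and no support for a difference.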

How the data were processed

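RNA from mouse mammary tumors and glands was sequenced in 15 libraries, of which 9 from 7 mice entered the fit described here. The deposited values are TPM per gene, which per the authors' methods came from trimmed reads aligned to GRCm38 with STAR and quantified with RSEM; GEO's tool list also names TopHat and Cufflinks, and the RNA isolation and library kits differ between the labels and the paper. TPM, transcript shares scaled to a fixed total, sum alike in every library, which hides the read depth, and errors are therefore those between libraries only. Replicates are separate tumors per the labels, except the repeated mice; whether tumor FVB002 is independent of 219 and FVB001 was not tested.

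A gene was tested when it had at least 1 TPM in at least 3 of the 6 tumors. Log2(TPM + 1) was fitted with limma 3.58.1 in R 4.3.3, two-sided, with group and sequencing batch as terms and mouse as a block, because the repeats come from the same animals (correlation within a mouse 0.948), then eBayes with a variance trend and Benjamini-Hochberg adjustment at 0.05. Levels called shift-corrected had the mean shift of both repeated mice subtracted. The fit was run on simulated data with known changes, and how many of these it recovered is not reported here. Positions are from GENCODE M21 on the same assembly, and gene symbols from the deposited tables or, where missing there, from that annotation. Named genes were, up to 12 per direction, those past the threshold, then those of smallest unadjusted p with a mean of at least 10 TPM in the higher group, no overlap after the shift and shifts of the repeated mice within 1 of each other, clone names left out; Trim24, list members past a limit, defining markers and the genes of most extreme shift were added. The groups, members and 28 gene lists were chosen with earlier results of these data known. Carcinosarcomas and the other glands entered only the alternatives with 15 libraries. Figures were drawn with matplotlib 3.10.9. Some results, among them 1 named gene, are not reported here.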

Additional observations from a re-analysis of the deposited data

How the results depend on the processing

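The number of genes past the adjusted threshold, 0 in the fit reported, was again 0 in batch 2 alone, with a pseudocount of 0.1, with no filter or one at 5 TPM, under median-of-ratios scaling, with protein-coding genes rescaled, and with no variance trend or a robust one. It was 985 with no batch term, 7 with the batch shift subtracted and its error left out, 9 with the shift from gland 133 alone and 5 from carcinoma 3956 alone, 1 with a pseudocount of 5 and 2 after quantile normalization. Without the mouse as a block it was 1 with 9 libraries and 4 with 15, and with the block and 15 libraries 5. List genes past the threshold numbered 22 with no batch term, 1 with the shift subtracted, with the shift from either mouse, without the block in 9 libraries, with a pseudocount of 5 and after quantile normalization, and 2 in both fits of 15 libraries. Leaving out 1 tumor gave 0 to 80 genes and 0 to 15 list genes: 80 and 15 without 219, 5 and 2 without 273_5, 1 and 0 without 3956. Against 219 alone, a fit added after seeing the data, both counts were 0. Where a single repeated mouse was left, the correlation of the reported fit was used. Trim24 and the named genes kept their direction in every alternative in which they were tested, leaving aside genes below 1 TPM throughout a group. For genes whose groups do not overlap after the batch shift, as here, this was largely fixed in advance. The genes left aside passed the filter on low values through the other group alone, which also fixed their direction. Depth is unknown, so low levels carry no stated counting error.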
